A study of Mus musculus with 9 samples.

Results

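The RNAs described here are 9 long noncoding RNAs of CD4+ T cells: Malat1 and Neat1, which stay in the nucleus, and Gas5, Snhg1, Snhg3, Snhg5, Snhg6, Snhg8 and Snhg12, which carry small nucleolar RNAs (snoRNAs) in their introns. They were chosen by name from the 14912 rows of the deposited table, which holds 1 row for each of the 9. All 9 had enough signal to be tested. In cells induced beside tumour organoids the 5 hosts that hold box C/D snoRNAs rose 1.88-fold to 4.93-fold over day 0, and of the 2 hosts of box H/ACA snoRNAs alone, Snhg8 fell 1.68-fold and Snhg3 had a log2 difference of -0.64 that missed the test. Snhg12, the highest of the 5, holds both classes, 1 box C/D and 3 box H/ACA snoRNAs. The grouping by class was chosen after the values were seen, and the difference between the classes was not tested. Among protein-coding hosts the median log2 change was 0.02 for box C/D alone and -0.05 for box H/ACA alone. In cells induced with TGFβ the hosts did not part by class against day 0. Snhg3 rose 2.18-fold and Gas5 1.34-fold, calls that some alternatives lost, and Snhg8 fell 2.06-fold. Snhg1, Snhg5, Snhg6 and Snhg12 were not called there. Malat1 fell 8.16-fold in cells induced with TGFβ and was high in both other groups.

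The cells came from 1 mouse strain, B6.Cg-Foxp3tm2(EGFP)Tch/J, hemizygous for Foxp3 tm2Tch, in which eGFP is made under the control of Foxp3, the master transcription factor of regulatory T (Treg) cells. There were 3 groups of 3 libraries, all CD4+ T cells. The day 0 group held eGFP-negative cells with no treatment. The TGFβ-iTreg group held eGFP-positive cells after 5 days in which TGFβ was given at 10 ng/ml and IL-2 at 300 U/ml, with anti-CD3 and anti-CD28 (1 µg/ml). The mTO-iTreg group held eGFP-positive cells after 5 days of co-culture with organoids grown from mouse colorectal tumours, where IL-2 was given at 20 U/ml and the antibodies were the same. The 2 day 5 groups therefore differed in TGFβ, organoids and IL-2 dose together, and each differed from day 0 in time, antibodies and eGFP selection as well. The codes of the mTO-iTreg libraries have another form than those of the other 6 libraries, so a difference of library handling and the culture cannot be told apart. Whether the 3 libraries of a group came from separate animals or cultures is not stated, so every p-value refers to the spread among these libraries alone, which may be technical.

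Malat1 is an abundant RNA of nuclear speckles, the bodies that store splicing factors, and is known to bind pre-mRNA splicing proteins. Neat1 is the scaffold of paraspeckles, nuclear bodies built on its long isoform together with the proteins Sfpq, Nono and Pspc1. In the other genes the introns are trimmed to snoRNAs, and the spliced RNA is often seen as a by-product. Box C/D snoRNAs guide 2′-O-methylation and box H/ACA snoRNAs guide pseudouridylation, mostly of ribosomal RNA. Many such hosts carry the pyrimidine-rich start (5′TOP) of ribosomal protein mRNAs, and the spliced Gas5 RNA is degraded by nonsense-mediated decay when it is translated, so that it accumulates in cells whose growth is arrested.

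The libraries held 2078223 to 9944952 counts, and a single count was worth 0.494 to 2.69 normalized counts. T cell markers (7 of 10 listed were in the table, Cd3d, Cd3e, Cd3g, Cd4, Cd2, Cd5 and Lck) were above 0 in every library, with summed values of 26449 to 28732 (day 0), 16379 to 17934 (TGFβ-iTreg) and 19044 to 23154 (mTO-iTreg). Myeloid and antigen-presenting markers (10 of 15) summed to 1403 to 8388 on day 0, where replicate 3 was highest with H2-Ab1 at 2463, to 864 to 1158 in TGFβ-iTreg and to 2336 to 3453 in mTO-iTreg libraries. In the mTO-iTreg libraries H2-Eb1 alone gave 2331, 1410 and 1817 of these sums; of the 9 such markers tested, 1 (H2-Eb1) rose and 4 (Fcer1g, Tyrobp, H2-Ab1 and H2-Aa) fell there against day 0. B cell markers (6 of 10) summed to 10.8 to 59.1 on day 0, and Ebf1 was 0 in all day 0 libraries; the sums reached 81.4 in TGFβ-iTreg and were 61.1 or more in mTO-iTreg libraries. Epithelial markers (8 of 15) summed to 18.8 to 25.3, 138 to 141 and 43.7 to 125 in the 3 groups in that order, led by Epcam and Cdh1, while Muc2 was 0 in 8 of 9 libraries and Krt18 in 7. Mitochondrial RNAs took 17.4 to 19.6% of counts on day 0, 10.4 to 12.3% in TGFβ-iTreg and 12.2 to 12.5% in mTO-iTreg libraries. Xist, the RNA of the silenced X chromosome, stood at 3.51, 0 and 212 in the day 0 libraries. It stood at 0, 2.71 and 70.6 in TGFβ-iTreg and at 314, 398 and 401 in mTO-iTreg libraries. The libraries thus differ in makeup along with the groups, and the part of these shifts in the results below was not tested. Whether the groups came from animals of different sex was not tested either. Such a difference could not be told apart from the culture.

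Levels are normalized counts, and log2 changes are on the log2(value + 1) scale with their standard error (SE); a gene was called at an adjusted p under 0.05 in limma's test across 10983 genes. In TGFβ-iTreg against day 0 cells, 4 of the 9 RNAs were called (18.6% of all genes tested), Gas5 and Snhg3 up (9.78% of all genes) and Malat1 and Snhg8 down (8.80%). In mTO-iTreg against day 0 cells, 7 were called (33.9% of all genes), Gas5, Snhg1, Snhg5, Snhg6 and Snhg12 up (19.4% of all genes) and Neat1 and Snhg8 down (14.5%). Between the day 5 groups, 8 were called (26.6% of all genes), with Malat1, Gas5, Snhg1, Snhg5, Snhg6 and Snhg12 higher (14.9% of all genes) and Neat1 and Snhg3 lower (11.8%) in mTO-iTreg cells. The values of the compared groups did not overlap for 5, 8 and 9 of the 9 RNAs in these comparisons, against 35.9%, 46.2% and 44.6% of all genes. The median log2 change of the 9 was 0.06, 0.88 and 1.29, and that of all genes tested -0.02, 0.09 and 0.13. Of all called genes 52.6% rose in TGFβ-iTreg and 57.1% in mTO-iTreg against day 0 cells; when all libraries were given equal totals these shares were 75.4% and 70.4%, and the median of all genes moved to 0.22 and 0.31. The balance also turned the other way, to 43.5% with limma-voom in the first comparison and to 49.0% with quantile normalization in the second. Between the day 5 groups 55.8% of called genes were higher in mTO-iTreg cells, against 47.7% with TMM factors and 46.7% with quantile normalization. Both comparisons against day 0 use the same 3 day 0 libraries. In bulk RNA, fewer cells of a type and less RNA per cell cannot be told apart, here and below.

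**Figure D1:**
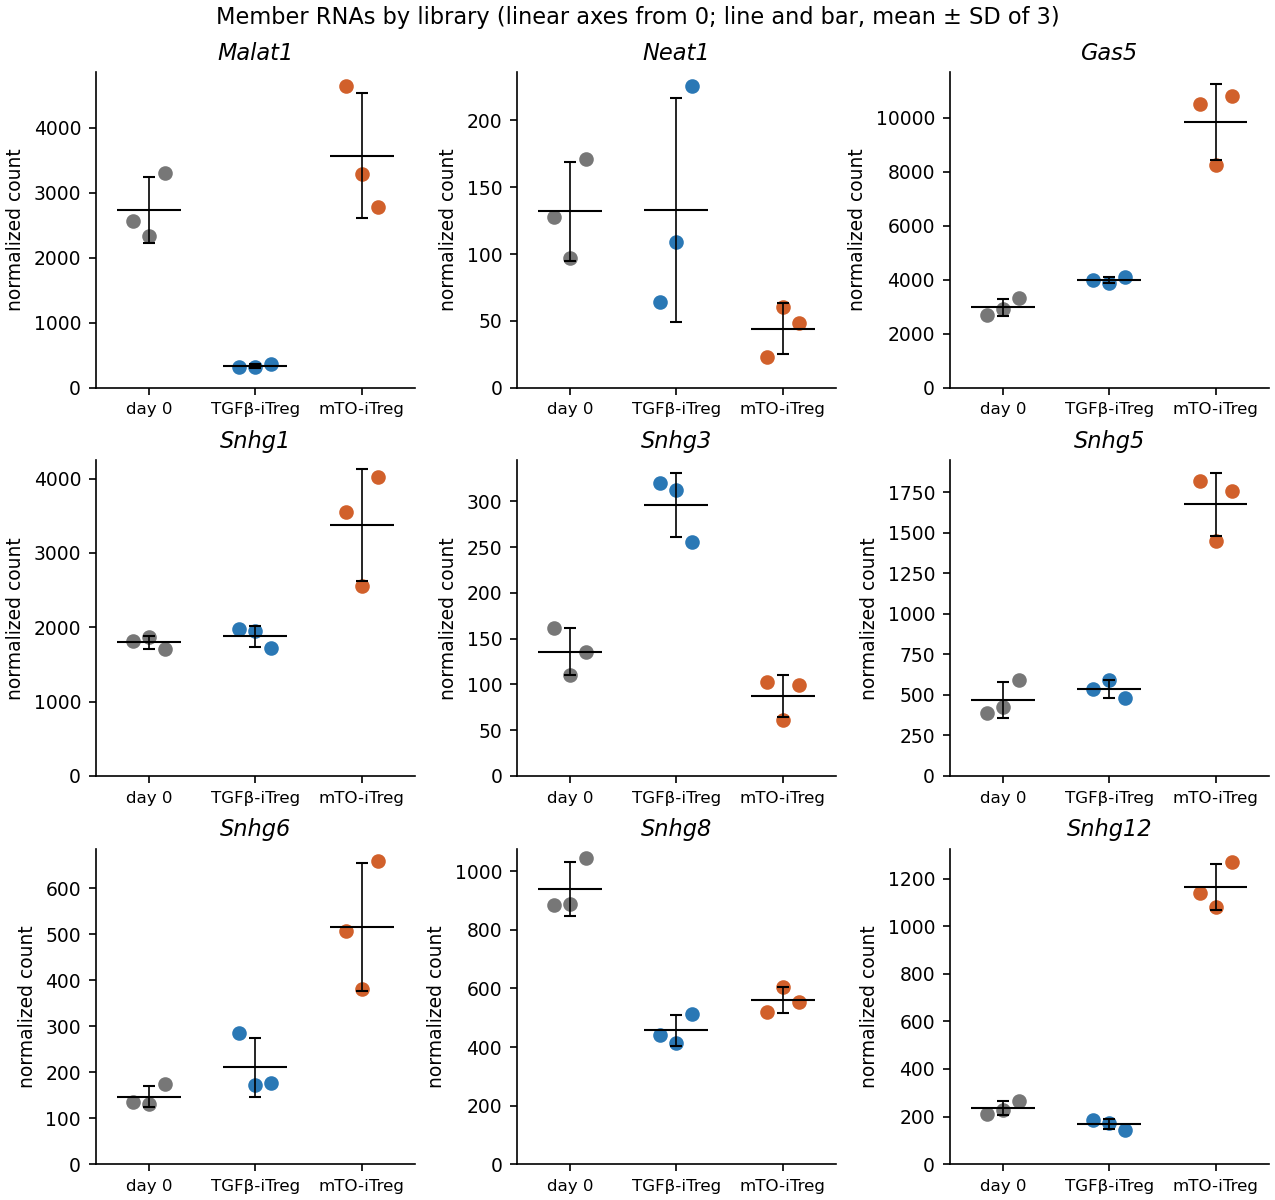
Normalized count of each of the 9 RNAs (vertical axis, linear from 0) in the 3 libraries of each group (points from left to right by replicate number), with the mean (line) and SD (bar) of 3. Malat1 is at 315 to 370 in TGFβ-iTreg libraries and at 2328 or more in all others, and the mTO-iTreg libraries are highest for Gas5, Snhg1, Snhg5, Snhg6 and Snhg12.

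**Figure D2:**
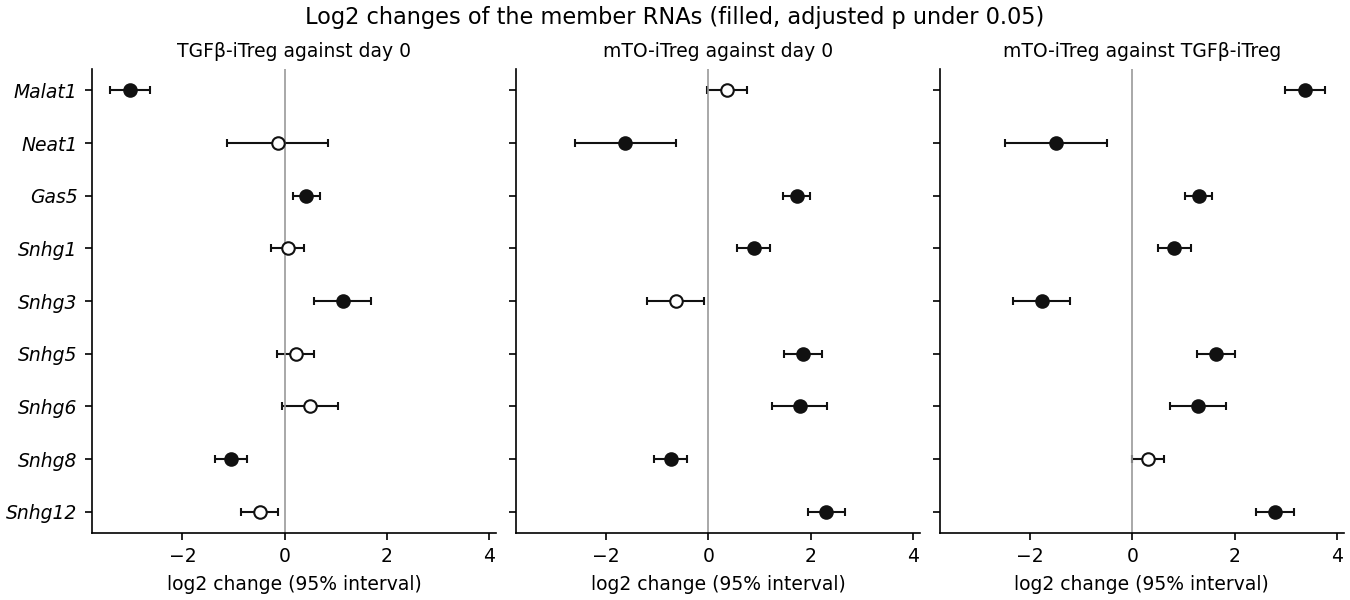
Log2 change (horizontal axis) of the 9 RNAs (vertical axis) in each comparison, with limma's 95% interval; filled points have an adjusted p under 0.05. Snhg3 and Snhg12 lie on opposite sides of 0 in the first 2 panels, in opposite order.

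Malat1 (chr19:5795690-5802672, minus strand; coordinates here and below follow GENCODE M21, build GRCm38) is an intergenic RNA that in its longest annotated form is a single exon. It had 2565, 2328 and 3296 normalized counts on day 0, 315, 319 and 370 after TGFβ induction, and 4634, 3293 and 2773 after organoid co-culture. The TGFβ-iTreg libraries lay far below all others and close to each other. Malat1 was 8.16-fold lower in TGFβ-iTreg than in day 0 cells (log2 change -3.01, SE 0.18, adjusted p = 1.1e-06, limma) and 10.7-fold higher in mTO-iTreg than in TGFβ-iTreg cells (log2 change 3.38, adjusted p = 5.5e-08). The mTO-iTreg and day 0 values overlapped, with a log2 difference of 0.37 (95% interval -0.02 to 0.76, adjusted p = 0.13). That last call depends on the scaling: it passed with equal totals (0.59, adjusted p = 0.027, where the median of all genes was 0.31) and with quantile normalization (0.50, adjusted p = 0.044), and it also passed without mTO-iTreg replicate 3 (0.53, adjusted p = 0.049).

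Neat1 (chr19:5824708-5845478, minus strand) lies 22036 bases from Malat1 on the same strand and was read far less often. Its values were 128, 96.8 and 171 on day 0, 64.0, 109 and 226 in TGFβ-iTreg libraries, and 23.2, 60.8 and 48.5 in mTO-iTreg libraries. The TGFβ-iTreg libraries spread over the whole range of day 0 and beyond it, and every mTO-iTreg library lay below every other library. Against day 0, Neat1 was 2.99-fold lower in mTO-iTreg cells (log2 change -1.62, SE 0.46, adjusted p = 0.015, limma), and against TGFβ-iTreg cells 3.01-fold lower (-1.49, adjusted p = 0.030). The first of these calls was lost without day 0 replicate 3 (-1.42, adjusted p = 0.058) or without mTO-iTreg replicate 1 (-1.23, adjusted p = 0.066). The second was lost without the variance trend (adjusted p = 0.079), without TGFβ-iTreg replicate 2 (adjusted p = 0.063) or 3 (-1.01, adjusted p = 0.15), and without mTO-iTreg replicate 1 (-1.09, adjusted p = 0.12) or 3 (adjusted p = 0.052). In TGFβ-iTreg against day 0 cells the log2 difference was -0.14 (95% interval -1.13 to 0.85), and its sign changed with the processing.

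The 2 neighbouring RNAs stood in different proportion in each group, in the row values as deposited and without a correction for length. The ratio of Malat1 to Neat1 was 20.0, 24.1 and 19.3 in the day 0 libraries, 4.92, 2.92 and 1.64 in TGFβ-iTreg and 200, 54.2 and 57.2 in mTO-iTreg libraries. Frmd8, which lies 4224 bases beyond Neat1, was not called in any of the 3 comparisons. CEL-Seq primes on poly(A), so the RNA ends matter for what a row counts; the last 50 bases of annotated Malat1 and Neat1 transcripts are shown with the poly(A) signal AATAAA in capitals.
Malat1 end: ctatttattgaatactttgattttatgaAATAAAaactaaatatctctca
Neat1 short form end: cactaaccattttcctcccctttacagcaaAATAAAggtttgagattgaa
Neat1 long form end: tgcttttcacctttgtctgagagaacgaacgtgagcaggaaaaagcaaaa
Malat1 (6983 bases) and the short Neat1 form (3004 bases) have the signal 16 and 14 bases before their ends, whereas the long Neat1 form (20771 bases), the form that builds paraspeckles, has none in the stretch shown. The single Neat1 row does not separate the isoforms. A signal in the annotated sequence does not show that the RNA counted here carried a poly(A) tail. Which ends the Malat1 and Neat1 rows count was not tested.

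**Figure D3:**
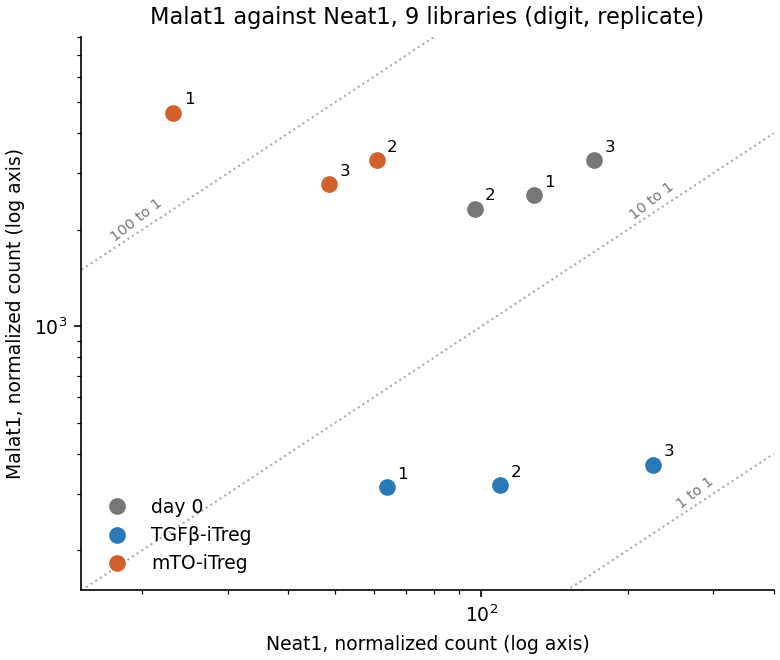
Malat1 (vertical axis) against Neat1 (horizontal axis), both as normalized counts on log axes, for the 9 libraries (digits give the replicate number); dotted lines mark ratios of 1, 10 and 100 to 1. TGFβ-iTreg libraries lie below the line of 10 to 1, and the mTO-iTreg libraries have the lowest Neat1 values.

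GENCODE M21 places 27 snoRNAs inside the 7 host genes on the same strand, 21 of them box C/D and 6 box H/ACA. Gas5 holds 9 and Snhg1 holds 8 box C/D snoRNAs, Snhg5 holds 2 and Snhg6 holds 1. Snhg12 holds 1 box C/D and 3 box H/ACA snoRNAs, and Snhg3 and Snhg8 hold only box H/ACA snoRNAs, 2 and 1. One snoRNA of each host, with both of the near-identical Snord50 pair and 1 of each class for Snhg12, is shown from the GENCODE transcripts to make the classes visible; capitals mark box C and box D, or the ACA near the 3′ end.
Snord47 (in Gas5, chr1:161038082-161038158, plus strand): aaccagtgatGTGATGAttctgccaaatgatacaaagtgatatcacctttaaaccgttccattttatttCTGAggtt
Snord22 (in Snhg1, chr19:8725866-8725991, plus strand): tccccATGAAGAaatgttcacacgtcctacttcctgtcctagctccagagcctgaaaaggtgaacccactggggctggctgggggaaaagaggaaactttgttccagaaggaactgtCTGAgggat
Snord50a (in Snhg5, chr9:88521529-88521600, minus strand): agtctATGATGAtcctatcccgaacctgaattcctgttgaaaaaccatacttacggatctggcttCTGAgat
Snord50b (in Snhg5, chr9:88521797-88521868, minus strand): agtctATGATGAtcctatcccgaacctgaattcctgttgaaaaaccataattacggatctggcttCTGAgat
Snord87 (in Snhg6, chr1:9942463-9942549, minus strand): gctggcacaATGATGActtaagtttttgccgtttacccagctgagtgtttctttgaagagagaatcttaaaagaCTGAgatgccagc
Snord99 (in Snhg12, chr4:132310691-132310764, plus strand): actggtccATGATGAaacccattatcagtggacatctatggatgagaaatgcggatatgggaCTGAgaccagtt
Snora61 (in Snhg12, chr4:132310240-132310369, plus strand): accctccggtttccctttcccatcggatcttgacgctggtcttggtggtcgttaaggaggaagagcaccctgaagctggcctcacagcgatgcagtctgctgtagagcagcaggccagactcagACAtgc
Snora24 (in Snhg8, chr3:123507937-123508066, minus strand): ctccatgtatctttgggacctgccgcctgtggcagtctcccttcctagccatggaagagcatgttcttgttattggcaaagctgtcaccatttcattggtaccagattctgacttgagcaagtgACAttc
Snora73a (in Snhg3, chr4:132352775-132352979, minus strand): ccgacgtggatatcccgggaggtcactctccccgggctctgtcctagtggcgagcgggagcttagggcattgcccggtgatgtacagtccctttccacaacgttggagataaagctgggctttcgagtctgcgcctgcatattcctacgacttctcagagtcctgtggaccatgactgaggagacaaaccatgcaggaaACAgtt
Box C was searched as NTGATGA with up to 1 mismatch, starting in the first 16 bases, box D as CTGA ending in the last 12 bases, and ACA with exactly 3 bases after it, each on the RNA's own strand. All 21 box C/D snoRNAs held both boxes, but the boxes had classed those with no Snord name, so this is no test of the class. Of the 1558 annotated snoRNA and scaRNA genes, all classes together, 24.5% held both. Of the 6 box H/ACA snoRNAs 5 held the ACA, against 19.3% of the 1558. Snord50a and Snord50b differ at 1 of 72 bases (C50A, counted from the 5′ end, Snord50a first), and Snora73a and Snora73b at 7 of 205.

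**Figure D4:**
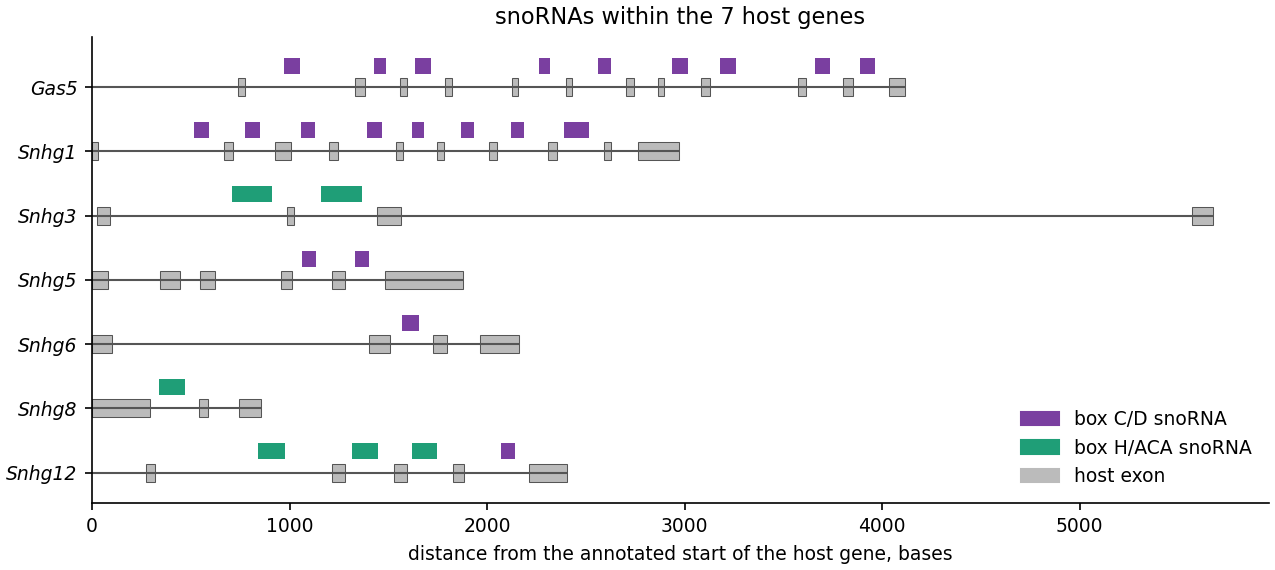
Map of the 7 host genes, each drawn from its annotated start (horizontal axis, bases); grey boxes are the exons of the transcript with the most exons, coloured boxes above are snoRNAs by class. The box C/D snoRNAs of Gas5 and Snhg1, 9 and 8, lie spread along the genes, whereas Snhg3 and Snhg8 carry box H/ACA snoRNAs only.

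Gas5 (chr1:161034422-161038539, plus strand), the growth-arrest host RNA, was higher in both day 5 groups than on day 0. It stood at 2695, 2927 and 3311 on day 0, at 3982, 3886 and 4094 in TGFβ-iTreg libraries and at 10506, 8236 and 10805 in mTO-iTreg libraries, 3 ranges that did not overlap. Gas5 rose 3.31-fold in mTO-iTreg cells against day 0 (log2 change 1.72, SE 0.12, adjusted p = 5.0e-07, limma) and was 2.47-fold higher there than in TGFβ-iTreg cells (1.29, adjusted p = 8.4e-06). Its 1.34-fold rise in TGFβ-iTreg cells (0.43, SE 0.12, adjusted p = 0.028) was lost in 8 of 22 alternatives (adjusted p of 0.0021 to 0.16 over all 22), among them the fits without day 0 replicate 1 (0.11) or 2 (0.072) and without TGFβ-iTreg replicate 1 (0.075), 2 (0.060) or 3 (0.076).

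Snhg1 (chr19:8723475-8726443, plus strand) is the other host with many box C/D snoRNAs. Day 0 libraries had 1819, 1863 and 1705, TGFβ-iTreg libraries 1975, 1943 and 1719, and mTO-iTreg libraries 3547, 2548 and 4019. The first 2 groups overlapped (log2 difference 0.06, 95% interval -0.26 to 0.39), and the mTO-iTreg libraries were all higher, by 1.88-fold against day 0 (log2 change 0.88, SE 0.15, adjusted p = 0.00052, limma) and 1.79-fold against TGFβ-iTreg cells (0.82, adjusted p = 0.0013). Snhg1 starts 106 bases from Slc3a2, which runs the other way and encodes the heavy chain of amino acid transporters. Slc3a2 rose as well, from 460 ± 52.8 (SD, n = 3) on day 0 and 522 ± 45.5 in TGFβ-iTreg to 2064 ± 480 in mTO-iTreg cells (log2 change 2.14 against day 0, limma adjusted p = 1.1e-06). The ratio of Snhg1 to Slc3a2 was 3.46 to 4.51 in the day 0 and TGFβ-iTreg libraries and 1.87, 0.978 and 2.38 in the mTO-iTreg libraries, with no overlap.

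Snhg5 (chr9:88521050-88522929, minus strand), host of the Snord50 pair, had 388, 425 and 593 on day 0, 536, 589 and 481 in TGFβ-iTreg libraries and 1818, 1452 and 1756 in mTO-iTreg libraries. The lowest mTO-iTreg library (1452) lay far above the highest of the other 6 (593). Snhg5 rose 3.58-fold against day 0 (log2 change 1.85, SE 0.17, adjusted p = 4.1e-06, limma) and 3.13-fold against TGFβ-iTreg cells (1.64, adjusted p = 1.7e-05), while TGFβ-iTreg and day 0 cells differed by 0.21 (95% interval -0.16 to 0.58).

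Snhg6 (chr1:9941959-9944118, minus strand), host of Snord87, had 135, 132 and 174 on day 0, 285, 172 and 177 in TGFβ-iTreg libraries and 507, 382 and 660 in mTO-iTreg libraries. It rose 3.51-fold in mTO-iTreg cells against day 0 (log2 change 1.78, SE 0.25, adjusted p = 0.00013, limma) and 2.44-fold against TGFβ-iTreg cells (1.29, adjusted p = 0.0022). The TGFβ-iTreg values overlapped those of day 0 and hung on replicate 1 (log2 difference 0.49, 95% interval -0.05 to 1.04).

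Snhg12 (chr4:132308623-132311024, plus strand) holds both classes of snoRNA and had the largest log2 change of the 9 RNAs in mTO-iTreg against day 0 cells. Its values were 212, 228 and 267 on day 0, 184, 174 and 144 in TGFβ-iTreg libraries and 1140, 1080 and 1270 in mTO-iTreg libraries. It rose 4.93-fold in mTO-iTreg cells against day 0 (log2 change 2.30, SE 0.17, adjusted p = 6.4e-07, limma) and stood 6.94-fold above TGFβ-iTreg cells (2.79, adjusted p = 2.3e-07). TGFβ-iTreg values lay below all day 0 values, by 0.49 on the log2 scale (95% interval of the change -0.86 to -0.13), without passing the test (adjusted p = 0.061). In Gas5, Snhg1, Snhg5, Snhg6 and Snhg12 alike, replicate 2 was the lowest of the mTO-iTreg libraries; their calls in mTO-iTreg cells held in all 22 alternatives.

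Snhg3 (chr4:132348014-132353686, minus strand), host of the Snora73 pair, lies 36990 bases from Snhg12 and showed the opposite order of groups. It had 161, 110 and 135 on day 0, 320, 313 and 255 in TGFβ-iTreg libraries and 102, 61.4 and 99.0 in mTO-iTreg libraries. Snhg3 rose 2.18-fold in TGFβ-iTreg cells (log2 change 1.13, SE 0.26, adjusted p = 0.0084, limma), a call lost without the shallowest day 0 and TGFβ-iTreg libraries (0.93, adjusted p = 0.091). In mTO-iTreg cells it was 3.38-fold lower than in TGFβ-iTreg cells (-1.77, adjusted p = 0.00025). Against day 0 the mTO-iTreg values were all lower but missed the threshold (-0.64, SE 0.26, adjusted p = 0.071), and passed it with TMM factors (-0.71, adjusted p = 0.049) or quantile normalization (-0.80, adjusted p = 0.031). Snhg3 shares 5592 of its 5673 bases with Rcc1 on the same strand, so reads of the pair may not be fully separated. Rcc1, the nucleotide exchange factor of Ran, had 49.4 ± 12.9 (SD, n = 3) on day 0, then 97.7 ± 5.04 after TGFβ induction and 100.2 ± 23.5 after organoid co-culture (log2 change 1.00, adjusted p = 0.044, and 1.01, adjusted p = 0.026, calls lost in 12 and 5 of 22 alternatives, among them the fits without day 0 replicate 3). The ratio of Snhg12 to Snhg3 was 1.32, 2.07 and 1.98 on day 0, 0.577, 0.557 and 0.565 in TGFβ-iTreg, and 11.1, 17.6 and 12.8 in mTO-iTreg libraries.

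Snhg8 (chr3:123507552-123508404, minus strand), host of Snora24, fell in both day 5 groups. Its values were 886, 887 and 1045 on day 0, 443, 413 and 514 in TGFβ-iTreg libraries and 520, 606 and 555 in mTO-iTreg libraries. All 6 day 5 libraries lay below the day 0 range. Snhg8 was 2.06-fold lower in TGFβ-iTreg (log2 change -1.04, SE 0.15, adjusted p = 0.00032, limma) and 1.68-fold lower in mTO-iTreg cells (-0.74, adjusted p = 0.0015). Between the day 5 groups it differed by 0.30 (95% interval -0.01 to 0.61, adjusted p = 0.15). The ratio of Gas5 to Snhg8 stood at 3.04 to 3.30 on day 0, at 7.97 to 9.41 in TGFβ-iTreg and at 13.6 to 20.2 in mTO-iTreg libraries. This ratio describes the pair and not the classes. Snhg3, also a host of box H/ACA snoRNAs alone, rose 2.18-fold in TGFβ-iTreg cells, where Gas5 rose 1.34-fold.

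The 9 RNAs together took 0.148 to 0.190% of counts on day 0, 0.159 to 0.162% in TGFβ-iTreg and 0.358 to 0.443% in mTO-iTreg libraries. Only 7 of the 27 snoRNAs had a row, and few counts: snoRNAs have no poly(A) tail, and their rows cannot stand for the mature RNAs. Snord47 of Gas5 had 20 counts over the day 0 libraries, 6 over TGFβ-iTreg and 8 over mTO-iTreg libraries, and Snord22 of Snhg1 had 30, 34 and 14; the other 5 had at most 15 in any group. Snord47 and Snord22 were the only ones tested, and neither was called in any comparison (lowest limma adjusted p of 0.072 and 0.055), so a difference was not shown at this depth.

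Beyond the 9 RNAs, the other genes of the annotation that hold snoRNAs on their own strand were grouped by class, a grouping chosen after the values of the hosts were seen. Of 6 further noncoding hosts of box C/D snoRNAs alone, 3 rose and none fell in mTO-iTreg against day 0 cells (median log2 change 1.81), beside 19.4% and 14.5% of all genes tested, whose median was 0.09. Of 5 noncoding hosts of box H/ACA snoRNAs alone, none rose and 1 fell (median -0.56). Among the 6, the 3 that rose were 2410006H16Rik, 1110038B12Rik and 1810032O08Rik. The others, 2700038G22Rik (0.51), AA465934 (-0.73) and 9330159M07Rik (-0.83), were not called and had group means of at most 41.0. No host of the 6 thus lay near the median of 1.81. 2410006H16Rik went from 707 ± 38.3 (SD, n = 3) on day 0 and 1310 ± 106 in TGFβ-iTreg to 7541 ± 443 in mTO-iTreg cells, a 10.7-fold rise (log2 change 3.41, SE 0.11, adjusted p = 7.5e-10, limma). 1110038B12Rik went from 104 ± 16.9 over 346 ± 15.2 to 1043 ± 111 (3.32, limma adjusted p = 2.4e-08), and 1810032O08Rik from 62.8 ± 27.9 and 60.8 ± 4.92 to 528 ± 121 (3.11, limma adjusted p = 6.4e-06). In TGFβ-iTreg against day 0 cells the first 2 rose (0.89, adjusted p = 0.00015, and 1.74, adjusted p = 2.1e-05). Among protein-coding hosts, of 42 hosts of box C/D snoRNAs alone 8 rose and 7 fell (median 0.02), and of 84 hosts of box H/ACA snoRNAs alone 20 rose and 20 fell (median -0.05), to be read beside the same 19.4% and 14.5%; the difference between the classes was not tested.

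**Figure D5:**
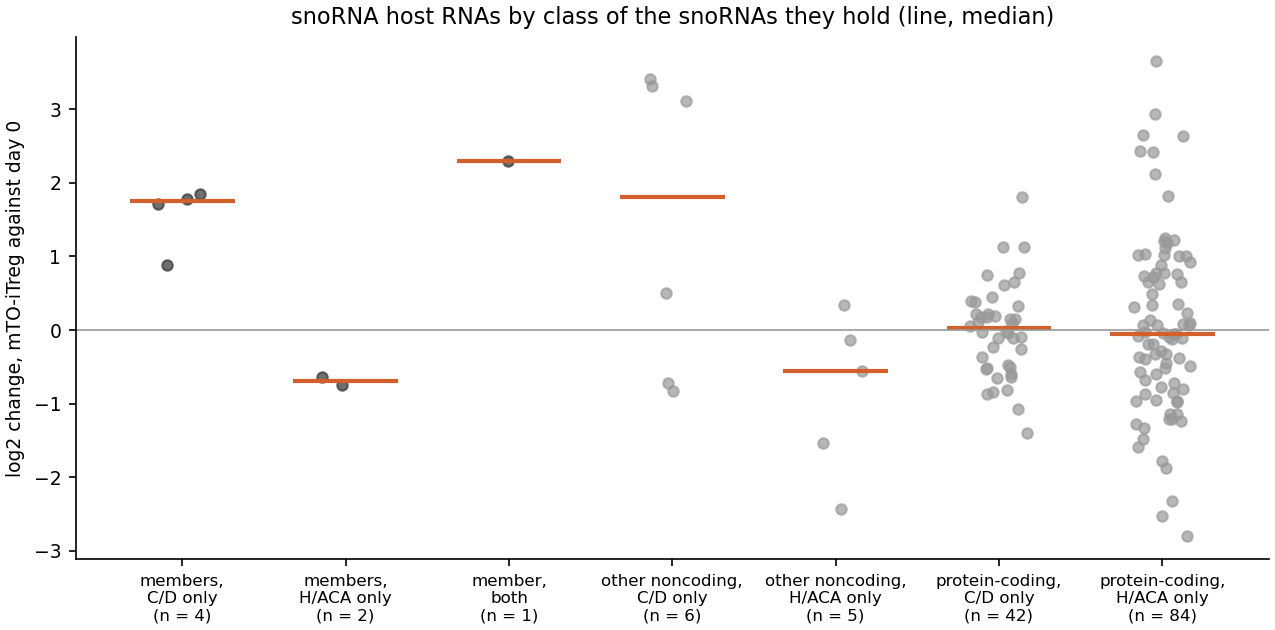
Log2 change in mTO-iTreg against day 0 cells (vertical axis) of snoRNA host RNAs by the class of snoRNA they hold (horizontal axis); each point is 1 gene and the line the median. Dark points are the 7 hosts described above (members), and grey points are other hosts of the annotation, whose 3 highest noncoding box C/D hosts lie above 3.

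Of the named snoRNA-host RNAs listed beside the 9, 6 of 15 were tested. Snhg4 was called, at 128, 86.0 and 89.7 on day 0, 143, 159 and 158 in TGFβ-iTreg and 36.8, 39.7 and 35.9 in mTO-iTreg libraries (log2 change against day 0 -1.39, adjusted p = 0.0019, and against TGFβ-iTreg -2.00, adjusted p = 0.00019, limma). Its order of groups was that of Snhg3. Snhg7, Snhg9, Snhg10, Snhg11 and Dancr were not called in any comparison, with means of at most 52.2.

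RefSeq (GRCm38.p6) gave windows around 8 start sites for 7 of the 9 RNAs. A 5′TOP-like tract, a C followed by at least 4 letters that are C or T, was searched from 10 bases before to 15 bases after the start on the gene's own strand. Tracts lay in 5 of the 8 windows, against 35.8% of all 32851 windows of the same length and 60.5% of 76 windows of cytosolic ribosomal protein genes. The 50 bases from 20 before the start are shown for 3 hosts that moved in different ways, with the tract in capitals.
Snhg12 (window chr4:132308428-132308727, plus strand): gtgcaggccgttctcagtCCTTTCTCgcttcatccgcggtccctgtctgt
Gas5 (window chr1:161034916-161035215, plus strand): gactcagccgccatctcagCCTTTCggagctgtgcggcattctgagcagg
Snhg8 (window chr3:123508287-123508586, minus strand): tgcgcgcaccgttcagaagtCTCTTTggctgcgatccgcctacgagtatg
Snhg12 and Gas5, which rose in mTO-iTreg cells, and Snhg8, which fell, thus hold such a tract alike; Snhg3 and Snhg5 hold one as well, and the windows of Malat1, Snhg1 and the other Gas5 start hold none.

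The protein partners and related pathways are given as counts of called genes, to be read beside all genes tested, of which 9.78% rose and 8.80% fell in TGFβ-iTreg, and 19.4% rose and 14.5% fell in mTO-iTreg, each against day 0. Of 16 core proteins of snoRNA particles, 1 rose and none fell in TGFβ-iTreg against day 0 cells, and 2 rose and 3 fell in mTO-iTreg against day 0 cells. Naf1, an assembly factor of box H/ACA particles, rose in TGFβ-iTreg cells (32.3 ± 3.22 to 88.5 ± 6.51, log2 change 1.43, adjusted p = 0.013, limma). Nop10 and Dkc1, subunits of the box H/ACA enzyme, fell in mTO-iTreg cells (-1.59, adjusted p = 0.00015, and -0.91, adjusted p = 0.011), as did the nucleolar chaperone Nolc1 (-0.75, adjusted p = 0.023), while the assembly factors Ruvbl2 (0.61, adjusted p = 0.048) and Nufip1 (0.51, adjusted p = 0.044) rose. Fbl, the methylase of box C/D particles, was not called against day 0 in either group and was lower in mTO-iTreg than in TGFβ-iTreg cells (-0.64, limma adjusted p = 0.016), as was the box H/ACA subunit Gar1 (-1.01, adjusted p = 0.025). Nop56, Nop58, Nhp2l1, Nhp2, Ruvbl1, Znhit3, Znhit6 and Shq1 were not called in any comparison.

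Of 38 ribosome biogenesis genes, 3 rose and 1 fell in TGFβ-iTreg and 3 rose and 6 fell in mTO-iTreg against day 0 cells. Beside these counts and those below stand 9.78% up and 8.80% down, and 19.4% up and 14.5% down, of all genes tested. Taf1d, a polymerase I factor whose gene also hosts snoRNAs, rose in mTO-iTreg cells (means of 196 and 475, log2 change 1.27, limma adjusted p = 0.00048), and Ubtf fell (-1.03, limma adjusted p = 0.0059). Among 30 listed protein-coding snoRNA hosts 7 rose and 10 fell in mTO-iTreg cells, Prrc2a among the first (1.02) and Rpsa among the second (-1.24). Among 23 translation factors with 5′TOP mRNAs 8 rose and 8 fell there, Eif3a (1.01) and Nap1l1 (1.26) among the first and Eif2s3x (-0.90) and Tpt1 (-0.72) among the second.

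The proteins of the bodies that Malat1 and Neat1 belong to were counted in the same way. Of 23 nuclear speckle genes tested, none rose and 8 fell in TGFβ-iTreg against day 0 cells, and 3 rose and 11 fell in mTO-iTreg against day 0 cells. Their median log2 change was -0.35 and -0.50, beside -0.02 and 0.09 for all genes tested, of which 9.78% rose and 8.80% fell in the first comparison and 19.4% rose and 14.5% fell in the second. The splicing factors Srsf6 (1152 ± 27.7 to 319 ± 90.8, log2 change -1.89, limma adjusted p = 3.3e-06) and Srsf2 (6083 ± 480 to 1961 ± 644, log2 change -1.68) fell in mTO-iTreg cells, and Luc7l3 (-1.28) and Srsf7 (-1.27) fell as well; the 3 that rose, named after their values were seen, were Ddx39b (0.61), Clk1 (0.57) and Srrm1 (0.57). In TGFβ-iTreg cells, where Malat1 fell, Pnn (-1.15), Sf3b1 (-0.96), Srsf7 (-0.94) and Ddx39b (-0.60) were lower than on day 0. Of 23 paraspeckle proteins 2 rose and 3 fell in TGFβ-iTreg, and 1 rose and 6 fell in mTO-iTreg against day 0 cells. Pspc1 rose in mTO-iTreg cells (86.0 ± 31.4 to 250.3 ± 37.9, log2 change 1.58, limma adjusted p = 0.00066), while Sfpq fell there (1589 ± 239 to 797 ± 77.9, log2 change -0.99).

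Genes of RNA decay and processing were counted next. Of all genes tested, 9.78% rose and 8.80% fell in TGFβ-iTreg, and 19.4% rose and 14.5% fell in mTO-iTreg, each against day 0. Of 19 nonsense-mediated decay factors 1 rose and 3 fell in TGFβ-iTreg, and 2 rose and 4 fell in mTO-iTreg against day 0 cells, with the core factors Upf3b (136 ± 30.2 to 316 ± 37.5, log2 change 1.23, limma adjusted p = 0.0014) and Upf1 (84.8 ± 12.4 to 180 ± 47.3, 1.05) higher and Smg1, the kinase of Upf1, lower (-0.88). Of 17 nuclear exosome genes 1 fell in TGFβ-iTreg cells, and Exosc2 rose (1.04) and Pabpn1 fell (-0.79) in mTO-iTreg cells. Of 14 genes listed for the processing and methylation of Malat1, 1 fell in TGFβ-iTreg and 2 fell in mTO-iTreg cells, among them the m6A methyltransferase Mettl3 (219 ± 92.4 to 27.2 ± 17.8, log2 change -3.17, limma adjusted p = 0.00036). Gas5 is known to bind the glucocorticoid receptor. Its gene Nr3c1 fell in TGFβ-iTreg cells (-1.13, limma adjusted p = 0.0022), and of 8 tested genes of that list 2 rose and 2 fell in TGFβ-iTreg, and 2 rose and 3 fell in mTO-iTreg cells: Klf9 rose (4.74) and Dusp1 (-2.48) and Tsc22d3 (-1.32) fell in the latter. No tested gene of the list was more than 0.95 higher in mTO-iTreg than in TGFβ-iTreg cells on the log2 scale. Klf9 was therefore above day 0 in both day 5 groups.

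For each RNA the 3 genes with the most similar profile were taken among 8801 genes with a mean of at least 20, by Pearson's r of log2(value + 1) over the 9 libraries. The libraries form 3 groups, so these values mostly describe shared group means. Those of Malat1 included Gpr132 (r = 0.983) and Eif4a2 (0.972), the latter a snoRNA host that was 1434 ± 71.5 on day 0 (SD, n = 3), 573 ± 56.0 after TGFβ induction and 1308 ± 109 after organoid co-culture. Neat1 was most like Ank (0.969), Stx4a and Nagpa, and Gas5 like Serf2 (0.996), Eif4e2 and Csnk2b. Snhg1 was most like Mib2 (0.979) and the ribosomal protein genes Rpl27 and Rpl41, and those of Snhg12 included D16Ertd472e (0.988) and Ecm1 (0.986). For Snhg5 these genes were Pold4 (0.994), Tinf2 and Samsn1, for Snhg6 Eci2 (0.983), Nap1l1 and Gars, for Snhg3 Lsm1 (0.988), Bak1 and Pomp, and for Snhg8 Zfp831 (0.989), Tgfbr3 and App.

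Nearby genes moved with their host in some cases, as Slc3a2 did with Snhg1, and not in others. Syncrip, 38476 bases from Snhg5, went from 793 ± 106 on day 0 to 327 ± 52.1 in mTO-iTreg cells (log2 change -1.28, limma adjusted p = 5.5e-05) while Snhg5 rose. Sgk3, 41114 bases from Snhg6, also fell (-1.35, limma adjusted p = 0.0029) while Snhg6 rose. Zfp949, 25091 bases from Snhg5 on its other side, was higher in mTO-iTreg than in day 0 cells without a call (1.00, limma adjusted p = 0.073). The same held for Wdr74, 9384 bases from Snhg1 (0.86, limma adjusted p = 0.068). Zbtb37, which overlaps Gas5 by 428 bases on the other strand, had means of 16.1 to 26.3 and was not called; whether the counting used strand is not given in the sources used here.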

How the data were processed

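RNA of 9 libraries was sequenced by a modified CEL-Seq method, per the labels' protocols; BWA, mm10 and DESeq2 are named in the submitters' processing notes. Tool versions and the handling of strand: not given in the sources used here. Values deposited are counts divided by 1 size factor per library. They were whole multiples of a single count (100% within 0.1), which gave the depths. The 10983 rows with at least 5 in at least 3 libraries were tested with limma 3.58.1 in R 4.3.3 on log2(value + 1) (group means, eBayes with a trend, Benjamini-Hochberg adjustment). Python 3.11.15 with pandas 2.3.3 and numpy 2.4.6 made the tables, and matplotlib 3.10.9 the figures. Named are all 9 RNAs, up to 4 called genes per list and comparison by size of change, every tested core protein of snoRNA particles and listed host RNA, neighbours, and the 3 most similar genes; a few of these genes are not reported here. The RNAs and the gene lists were chosen with earlier results of these data known. The script was tested on simulated data. Each result was recomputed under 22 alternatives, 9 of them leaving out a library. Sequences are from GENCODE M21 and RefSeq.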

Additional observations from a re-analysis of the deposited data

Results flagged for a closer look

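Snhg3 and Snhg12 stood out because every library of 1 day 5 group lay above the day 0 range and every library of the other lay below it, and because the day 5 groups differed past the test; Malat1, which also differed between the day 5 groups, overlapped day 0 in mTO-iTreg cells. Snhg3, host of box H/ACA snoRNAs, was 1.13 higher in TGFβ-iTreg and 0.64 lower in mTO-iTreg than in day 0 cells on the log2 scale, a difference between the day 5 groups of -1.77 (limma adjusted p = 0.00025). The change in mTO-iTreg cells (-0.64) did not pass the test on its own. Snhg12 was lower in TGFβ-iTreg cells (-0.49, not past the test) and higher in mTO-iTreg cells (2.30), a difference of 2.79 (limma adjusted p = 2.3e-07).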

How the results depend on the processing

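All calls of the 9 RNAs kept their direction in every alternative, and those in mTO-iTreg cells stayed past the threshold except for Neat1. The number of genes called in TGFβ-iTreg against day 0 cells, 2040, was 1355 without the variance trend and 1142 without the shallowest day 0 and TGFβ-iTreg libraries, where 2 of the 9 RNAs were called, Malat1 and Snhg8. Leaving out 1 library gave 1392 to 2002 genes and 3 or 4 RNAs there, 3034 to 3751 genes and 6 to 8 RNAs in mTO-iTreg against day 0 cells, and 2211 to 3154 genes and 7 or 8 RNAs between the day 5 groups. Neat1, not called in TGFβ-iTreg against day 0 cells, changed sign with equal totals (0.11), limma-voom (0.054) and without the shallowest libraries (0.086), and ranged from -0.61 to 0.29 when 1 library was left out. In the same comparison Nop10 changed sign with equal totals (0.014), and 1810032O08Rik without the shallowest libraries (-0.14) and over a range of -0.19 to 0.37 with 1 library left out. Rcc1 changed sign between the day 5 groups with TMM factors (-0.083), equal totals (-0.017, and -0.00076 without mitochondrial rows and Rn45s), quantile normalization (-0.16), and ranged from -0.13 to 0.21 with 1 library left out. The cause was not tested. The share of upward calls in TGFβ-iTreg against day 0 cells, 52.6%, ran from 43.5% (limma-voom) to 75.4% (equal totals, 65.6% without mitochondrial rows and Rn45s) over the scalings and limma-voom.

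With the replicate number as a block, 1938, 3670 and 2838 genes were called in the 3 comparisons, and 4, 7 and 8 of the 9 RNAs. The deviations of libraries with the same number correlated between -0.050 and 0.060. This shows no pairing by number, but with 3 libraries per group it cannot exclude one. Xist was highest in replicate 3 both on day 0 (212) and in TGFβ-iTreg libraries (70.6). A count test with edgeR on the recovered counts was not run. Where a single count is worth up to 2.69 normalized counts, in day 0 replicate 2, the depth limits low rows such as those of the snoRNAs.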

Other observations

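Other regulatory long noncoding RNAs, 15 of which were tested, were counted in the same way. None rose and 4 fell in TGFβ-iTreg against day 0 cells, beside 9.78% and 8.80% of all genes tested. In mTO-iTreg against day 0 cells 2 rose and 3 fell, beside 19.4% and 14.5% of all genes tested. Pvt1, the neighbour of Myc, had 158, 145 and 127 on day 0, 68.9, 79.3 and 62.3 in TGFβ-iTreg and 405, 276 and 465 in mTO-iTreg libraries. It fell in the first comparison (log2 change -1.02, SE 0.20, adjusted p = 0.011, limma), a call lost with limma-voom and without the shallowest day 0 and TGFβ-iTreg libraries (adjusted p = 0.068 and 0.060), and rose in the second (1.38, adjusted p = 0.00070). Peg13 fell in both, from 60.1 or more on day 0 to 19.7, 39.3 and 5.93 in TGFβ-iTreg and 8.87, 8.06 and 5.98 in mTO-iTreg libraries (adjusted p = 0.044 and 0.0022, limma). Tug1 fell in both, from 291, 285 and 222 on day 0 to 101, 127 and 134 in TGFβ-iTreg and 90.7, 93.1 and 113 in mTO-iTreg libraries (log2 change -1.13, adjusted p = 0.0043, and -1.41, adjusted p = 0.00040, limma). Kcnq1ot1, the antisense RNA of an imprinted region, had 25699, 20265 and 4682 on day 0, with the third library far below the other 2, and 1193 to 6196 in the day 5 libraries (log2 change -1.68, adjusted p = 0.044, and -2.72, adjusted p = 0.0016, limma).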
